A study of Rattus norvegicus with 36 samples.

Results

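The genes described here are the cytosolic ribosomal protein genes of rat liver, measured on Affymetrix 3′ expression arrays. They were chosen by name: a probe set had to carry a single platform symbol that begins with Rpl or Rps and a digit, or is Rplp0, Rplp1, Rplp2 or Rpsa, and the S6 kinase genes (Rps6k) were left out. 57 probe sets met this rule. The probe set with the highest mean over all arrays stood for each gene, which left 50 genes, the members, of the 14217 with a probe set of 1 symbol. By their names 34 of the 50 belong to the large and 16 to the small ribosomal subunit. The rule also takes in symbols that are paralogs or annotated copies of ribosomal protein genes, namely Rpl3l, Rpl7l1, Rpl26l1, Rpl39l1, Rps27l, Rps4y2, Rpl37-ps2 and Rps4x-ps1. A further 36 probe sets carry several symbols with a ribosomal protein gene among them, so ribosomal protein genes found only on such probe sets, Rps2, Rps14 and Rps19 among them, have no value of their own here.

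The ribosome translates mRNA with a small subunit, which decodes, and a large subunit, which forms the peptide bond. Its proteins are made in matched amounts, and their genes are transcribed in nearly all cells at high levels. In mammals many of their mRNAs start with a C followed by a run of pyrimidines, the 5′ terminal oligopyrimidine (TOP) tract, through which TOR signalling and the RNA-binding protein Larp1 control translation with growth and amino acid supply.

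Liver RNA came from male Harlan Sprague Dawley rats that received corn oil alone as vehicle, or TBPH, a brominated flame retardant, in corn oil at 0.07 or 0.71 mg/kg, at 7.06 or 70.6 mg/kg, or at 706 mg/kg. All 6 groups were dosed by gavage at 5 ml/kg on 5 consecutive days, starting at 7 weeks of age, and RNA was isolated from the left lobe a day after dosing ended. Each group has 6 arrays, 36 in all. Replicates are numbered in the labels, but nothing says that they are different animals, so the tests measure spread among these arrays, which may be technical. All values below are log2 RMA values, on which a difference of 1 is a doubling, and since the tissue is a mixture of cells, fewer cells of a type and less RNA per cell cannot be told apart.

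The tissue label was checked on 8 hepatocyte markers, whose mean signals lay between 9.32 and 14.76 log2, while the 4 pancreas markers lay between 3.22 and 4.26. Arrays of this type carry control probe sets at the 3′ and the 5′ end of the GAPDH and beta-actin mRNAs, and their difference grows when RNA is degraded or copied incompletely from the 3′ end. The GAPDH difference was 0.41 log2 on replicate 5 at 70.6 mg/kg and 0.33 on replicate 4 at 0.07 mg/kg, against −0.18 to 0.09 on the other 34 arrays. These arrays stand apart, and values of single members that turn on them are given with and without them.

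The transcript starts are shown for some of the members that the results turn on, because the TOP tract is defined at the first base of the mRNA. RefSeq (build GRCr8) lists a start for 41 of the 50 genes, matched by gene ID. Each line gives 10 bases before the annotated start and 20 from it on, and capitals mark a start base C together with the unbroken pyrimidines that follow it, where at least 4 do. Rpl19 and Rplp0, which followed the other members, and Rps15 and Rpl35a, which were called for a slope on the control difference, carry such a run.
Rpl19, chr10:83519054-83519083, plus strand: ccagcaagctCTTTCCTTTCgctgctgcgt
Rplp0, chr12:46718371-46718400, minus strand: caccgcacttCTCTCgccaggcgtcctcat
Rps15, chr7:10068096-10068125, minus strand: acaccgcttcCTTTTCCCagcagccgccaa
Rpl35a, chr11:81235002-81235031, minus strand: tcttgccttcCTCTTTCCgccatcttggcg
Rpl12, whose values followed the other members most closely, Rpl18 and Rps16, which followed them least among the members of high signal, Rps27l, which ran opposite to them, and Rps28 and Rpl13a, also called for a slope, have no such run at the annotated start. Runs are over-represented among the starts shown, as the count over all members says.
Rpl12, chr3:36661930-36661959, plus strand: aacatccgtcttttcggctttcggttcgga
Rpl18, chr1:105325260-105325289, plus strand: acctggtctagcaggaggcgccatcatggt
Rps16, chr1:92770648-92770677, plus strand: aaaatcggtcggggtggccccaagctttcc
Rps27l, chr8:76443648-76443677, plus strand: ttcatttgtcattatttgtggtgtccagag
Rps28, chr7:15311314-15311343, minus strand: ccctgctcacgtgactcctctccgctagat
Rpl13a, chr1:104748894-104748923, minus strand: tcctttcctaggcggctgccgaagatggcg

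A start base C followed by at least 4 pyrimidines was found in 11 of the 41 members (26.8%), against 2.63% of all 33469 promoters in the same table. In Rpl12 the listed start is a T within a pyrimidine-rich stretch, and the count depends on the annotated base, which may differ from the start used in liver. In the 250 bases before the start, on both strands, the letters CCGGAA occurred in 26.8% of members and 12.6% of all promoters. GGGCGG occurred in 61% of members and 30.5% of all promoters, and TATAAA in 14.6% of members and 12.9% of all promoters. These matches describe the sequence only.

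The 50 members fell into groups of high and low signal with nothing between 8.76 and 11.2 log2, a split made after the values were seen. The upper group holds 38 members, 26 of the large and 12 of the small subunit, with mean signals of 11.2 to 13.31 log2. Its lowest signal exceeds that of 97.88% of all probe sets. Rps29, a zinc-binding protein of the small subunit, gave the highest signal at 13.31 log2, followed by the large-subunit proteins Rpl26 at 13.08 and Rpl27a at 13.03. A probe set's signal depends on its probes as well as on the mRNA, so no gene is ranked above another in abundance from these values.

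The lower group of 12 holds all 8 of the paralogs and annotated copies listed above. Rpl7l1, a relative of Rpl7, averaged 8.76 log2, Rps27l, a paralog of Rps27, 8.13, and Rps4y2, a paralog of Rps4, 7.61. Rpl39, a protein of the peptide exit tunnel, averaged 5.47, and Rpl3l, a paralog of Rpl3 that is best known from heart and skeletal muscle, averaged 3.29. The dimmest probe sets were those of Rps4x-ps1 at 2.40, Rpl28 at 2.94 and Rpl3l. In the lower group 8 of 12 lie below the median signal of all probe sets, 5.09 log2, so their values may hold little mRNA signal, and what is reported for Rps13, Rpl28, Rpl30 and Rpl39, which are core ribosomal proteins, describes these dim probe sets and not the genes. Brighter probe sets that list Rps13, Rpl28 or Rpl30 beside other symbols, with mean signals of 11.92 to 12.53 log2, were left out by the rule.

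Members of the upper group varied little from array to array. Their SD within groups had a median of 0.0866 log2, beside 0.0897 for all 658 probe sets at or above 11.2 log2 and 0.148 for all probe sets. Rps29 varied least with an SD of 0.0417, followed by Rps9 at 0.0626 and Rpl34 at 0.0633, a large-subunit protein, and then Rps23, a protein of the decoding centre, at 0.0636. The largest SDs belonged to Rps4y2 at 0.365, Rps27l at 0.331 and Rps13 at 0.209, all in the lower group. Within the upper group Rpl18 had the largest SD, 0.147.

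Small as it was, the variation was shared. After group means were removed, the correlation (Pearson r over 36 arrays) between pairs of the 38 upper members averaged 0.635, with a median of 0.70 and quartiles of 0.555 and 0.803, and 79.4% of the 703 pairs exceeded 0.5. All probe sets of the same signal averaged 0.0178 between pairs, all probe sets 0.0012, and members against all other probe sets 0.00069. Over all 50 members the mean was 0.378, with a jackknife SE of 0.0456 over arrays, and within the lower group it was −0.0070. These correlations are descriptions across 36 arrays, whose points share RNA quality, hybridisation and normalization.

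**Figure D1:**
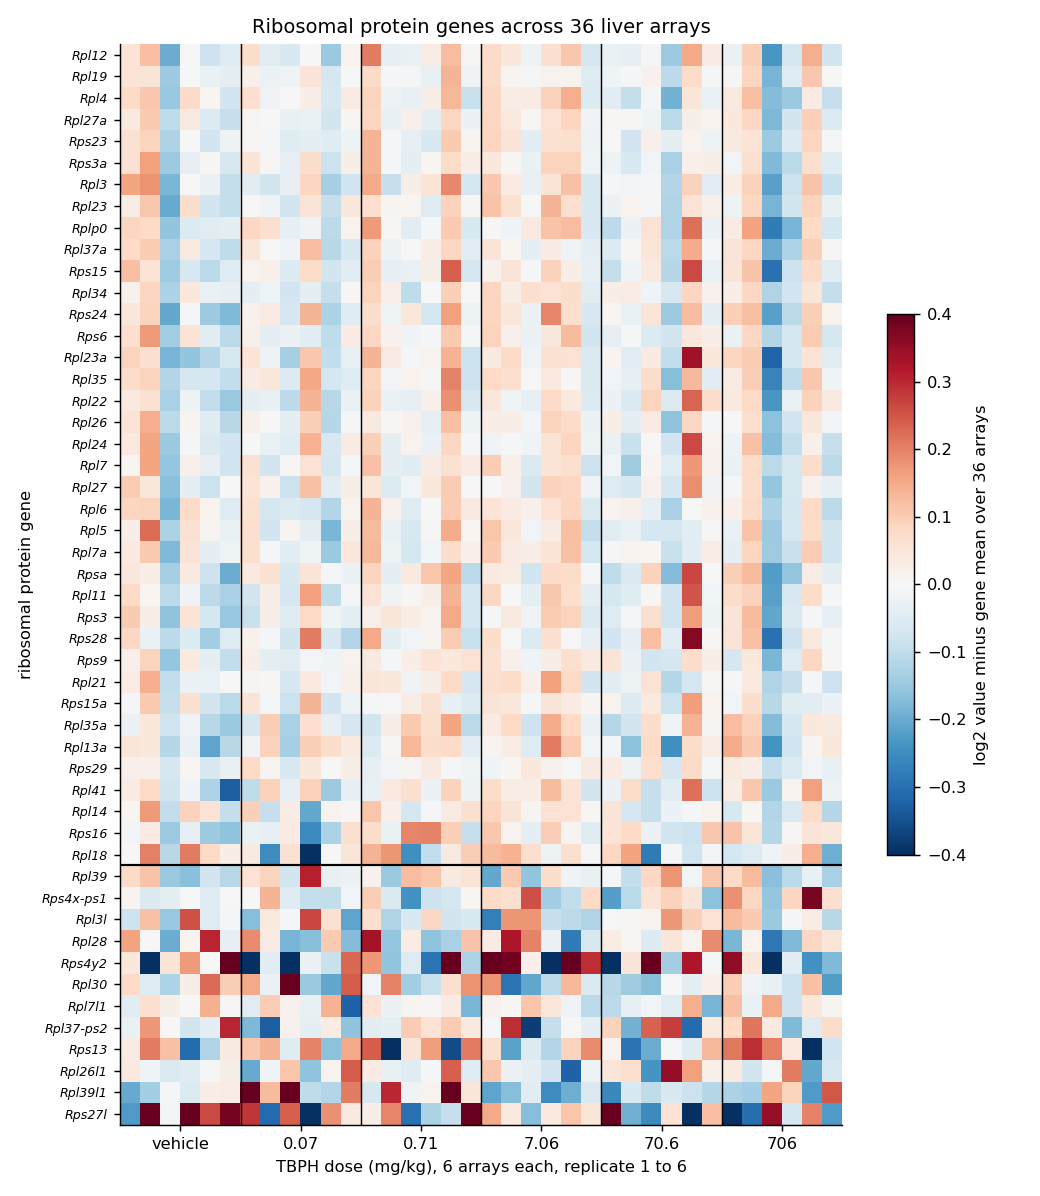
Log2 value minus the gene's mean over 36 arrays (colour, capped at 0.4 in both directions, a bound passed by single values of Rps27l, Rps4y2, Rpl39l1, Rps13, Rpl30 and Rpl18) for each of the 50 genes (vertical) on each array (horizontal, 6 per dose in mg/kg). Genes are ordered by their correlation with the other members within the upper (above the line) and lower group, and columns above the line are mostly of 1 colour from top to bottom.

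Rpl12, which sits at the base of the stalk where translation factors bind, had the highest correlation with the mean of the other members, 0.94. Rpl19, part of a bridge between the subunits, had 0.92, Rpl4, which lines the exit tunnel, 0.91, Rpl27a 0.91 and Rps23 0.89. In all, 35 of 50 members exceeded 0.5. Of the 38 upper members, 25 exceeded 0.8 against the mean of the other upper members. Upper members with a pyrimidine run at the listed start (9) had a median correlation of 0.865 with the mean of the other members. Those with a listed start and no run (23) had 0.815, a difference that was not tested.

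The stalk scaffold Rplp0, which is often used as a reference gene, had a correlation of 0.88 with the other members. Rps6, the substrate of S6 kinase, had 0.86. Rpsa, also known as the laminin receptor precursor, had 0.80. Rpl3, near the peptidyl transferase centre, had 0.89, Rps3, at the mRNA entry channel, 0.76, and Rpl41, the smallest member protein, 0.57. Rpl5, Rpl11 and Rpl23, which outside the ribosome can bind the p53 regulator Mdm2, had 0.82, 0.80 and 0.88. Rpl5 and Rpl11, which enter the ribosome together with 5S rRNA, correlated with each other at 0.48.

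Some members did not follow the others. In the upper group Rpl18 had a correlation of 0.07 with the mean of the other members, Rps16 0.35 and Rpl14, which has the lowest signal of that group, 0.49. The lowest correlations were those of Rps27l at −0.36, Rpl39l1 at −0.25, Rpl26l1 at −0.13, Rps13 at −0.09 and Rpl37-ps2 at −0.05. Among the other paralogs Rps4y2 had 0.15, Rpl3l 0.21 and Rpl7l1 −0.02, while Rpl39 had 0.39. The plot of signal against coordination shows that high signal and high correlation went together, with Rpl18 and Rps16 as exceptions.

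**Figure D2:**
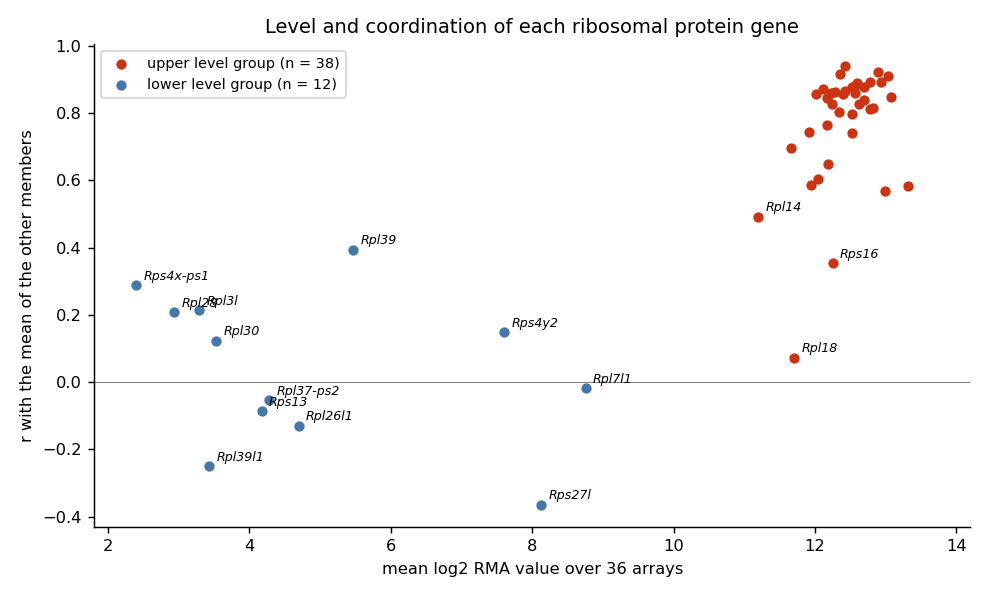
Mean log2 RMA value over 36 arrays (horizontal) against Pearson r with the mean of the other 49 members after group means were removed (vertical), with 1 point per gene and the upper (38) and lower (12) groups in different colours. No lower member exceeds 0.5, and Rpl18 lies near 0 at 11.71 log2.

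Second probe sets of the same genes were set beside the chosen ones. The 2 other probe sets of Rpsa correlated with the chosen one at 0.90 and 0.81, that of Rpl3 at 0.80 and that of Rpl7l1 at 0.73. Dimmer second probe sets of Rpl14 (4.26 log2), Rpl7 (8.10) and Rps24 (3.88) correlated with the chosen one at 0.40, 0.02 and −0.03. Probe sets of 1 gene thus moved together for Rpsa, Rpl3 and Rpl7l1 and not for Rpl7 and Rps24. The second probe sets of Rpsa and Rpl3 are of types whose probes can match several transcripts, so they give no independent check.

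The first principal component held 66.0% of the variance of the upper members. Large-subunit and small-subunit array means correlated at r = 0.97 (rho 0.96, 36 arrays), so that both subunits moved together. The array mean of the 38 upper members, taken as deviations from each gene's mean, ranged over 0.291 log2, or 1.22-fold, between −0.18 on replicate 3 at 706 mg/kg and 0.11 on replicate 5 at 70.6 mg/kg. The 36 probe sets of several symbols, which the rule leaves out, had a mean pairwise r of 0.559, and their array mean correlated with that of the upper members at 0.96.

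Other gene lists were coordinated to different degrees. The mean pairwise r was 0.457 in 73 mitochondrial ribosomal proteins, 0.312 in 34 proteasome subunits, 0.295 in 7 elongation factors and 0.293 in 8 further genes known for a TOP tract. It was 0.292 in 30 ribosome biogenesis genes, 0.272 in 90 respiratory chain genes, 0.140 in 49 initiation factors and 0.119 in 13 genes of TOR signalling. Differences between these means were not tested.

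**Figure D3:**
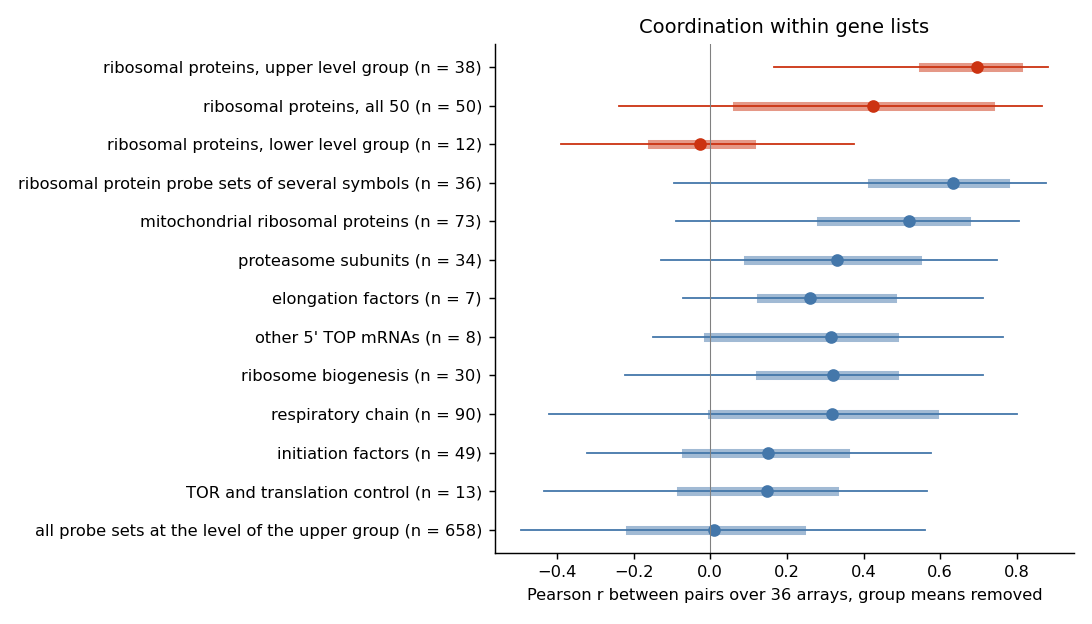
Pearson r between pairs of probe sets within each gene list over 36 arrays after group means were removed: points are medians, thick bars quartiles, thin lines the 5th to 95th percentile. The 38 upper members have a median of 0.70, the 12 lower members −0.03 and all 658 probe sets of the same signal 0.0099.

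Among genes outside the family with a probe set of 1 symbol, 3 were most like the member mean. Rack1, a scaffold protein on the small subunit, correlated with it at 0.91, Eef1g, a subunit of elongation factor eEF1, at 0.88 and Eef2, the translocation factor, at 0.86 (36 arrays). Among all other 30992 probe sets the median was −0.01, with 791 above 0.5. The elongation factors had a median of 0.63, with 4 of 7 above 0.5. In the list of further TOP genes the median was 0.62, with 4 of 8 above 0.5, among them Naca, Eif3f and Eif3h beside Rack1, while Hnrnpa1 was at −0.14 and Nap1l1 at −0.13.

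Genes that build ribosomes did not follow their proteins closely, with a median of 0.06 and 2 of 30 above 0.5. The mitochondrial ribosomal proteins had a median of 0.43, with 26 of 73 above 0.5. In the TOR list the median was 0.21, and the highest were Eif4ebp1, the translation repressor that TOR phosphorylates, at 0.73, Mtor at 0.56 and Akt1 at 0.52. Larp1 was at 0.04 and Rps6kb1, an S6 kinase gene, at −0.33.

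Markers of cell types were set against the member mean in the same way. The 8 hepatocyte markers had a median of −0.21, between −0.67 for Cps1, a urea cycle enzyme, and 0.37 for Apoa1. The 4 erythroid markers had a median of 0.32, all 4 above 0, and their array mean correlated with that of the upper members at r = 0.54 (rho 0.44). Kupffer cell markers had a median of 0.29 (5 of 5 above 0), sinusoidal endothelial markers 0.30 (3 of 4), stellate cell markers 0.23 (4 of 4), lymphocyte markers −0.07 (3 of 7 above 0) and pancreas markers −0.03 (2 of 4). Of the erythroid markers Hbb averaged 12.46 log2 and Alas2 7.11. Slc4a1 at 4.61 and Epb42 at 4.33 lay below the median signal of all probe sets, 5.09. The array mean of the erythroid markers ranged from −0.35 to 0.52, and its part in the shared variation of the members was not tested.

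The member means were set against the control difference. Over the 34 arrays the mean of the 50 members correlated with the GAPDH difference at r = 0.29 (rho 0.25), and that of the upper members at r = 0.30 (rho 0.29), or 0.33 without the 2 arrays farthest from the median difference. For the small subunit r was 0.40, for the large 0.25 and for the probe sets of several symbols, which are not members, 0.48. Against the beta-actin difference, which itself correlated with that of GAPDH at 0.90, the upper members had r = 0.17 (rho 0.18). Over all 36 arrays the value for GAPDH was 0.39 (rho 0.37).

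On the 2 arrays of high control difference the members lay, in the median, slightly above the other 5 arrays of their group. At 70.6 mg/kg replicate 5 exceeded the mean of the others by a median of 0.11 log2 over the 50 members and 0.02 over all probe sets. On replicate 4 at 0.07 mg/kg the median was 0.07 over the members and −0.01 over all probe sets. Without these arrays the coordination was as high: mean pairwise r was 0.667 in the upper group and 0.400 in all 50 members. With the GAPDH difference fitted as well, on all 36 arrays, it was 0.402 in all 50 members.

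Single members were then tested for a slope on the GAPDH difference with limma across all 31042 probe sets of the 34 arrays, with group means in the model. At a Benjamini-Hochberg adjusted p of 0.05, 4 of 50 members were called higher with a larger difference, beside 2.88% of all probe sets, and 2 of 50 were called lower, beside 2.88%. In either direction 6 of 50 were called, beside 5.75% of all probe sets. At an unadjusted p under 0.05 there were 16 of 50, beside 17.7%, with 14 higher beside 8.9% and 2 lower beside 8.79%. The members' slopes had a median of 0.26 log2 per unit of the difference, against −0.02 for all probe sets, and 41 of 50 slopes were above 0, against 48.6% of all. Because the members move together from array to array, these counts are not 50 separate observations.

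Of the 50 chosen probe sets that of Rps27l had the steepest negative slope. The second probe set of Rpl7, not used for the counts, had −3.38 (limma adjusted p = 0.00024). For Rps27l the lowest, median and highest values were 7.90, 8.45 and 8.56 log2 with vehicle. They were 7.13, 8.24 and 8.41 at 0.07 mg/kg and 7.83, 8.09 and 8.52 at 0.71 mg/kg. At 7.06 mg/kg they were 7.96, 8.17 and 8.28, at 70.6 mg/kg 7.36, 8.06 and 8.62, and at 706 mg/kg 7.70, 7.98 and 8.47. All groups overlap, and the lowest values of the series, 7.13 and 7.36, are those of the 2 arrays of high control difference. In human cells this gene is known as a target of p53. Its slope over the other 34 arrays was −2.65 per unit (95% interval −3.46 to −1.83, limma adjusted p = 5.46e-05), over a span of 0.275 log2 in the difference. Its correlation with the GAPDH difference was −0.79 over these arrays. The call was also made with the beta-actin difference and without each array in turn.

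Rpl18, a large-subunit protein, also fell with the control difference, with a slope of −1.11 (95% interval −1.67 to −0.56, limma adjusted p = 0.0103). Its values were 11.24 log2 on replicate 4 at 0.07 mg/kg, where the other 5 lay between 11.46 and 11.77, and 11.63 on replicate 5 at 70.6 mg/kg, within the 11.43 to 11.87 of the others. Rps16, the other upper member that followed the rest little, had 11.99 on the first of these arrays, below the 12.12 to 12.31 of its group, and a slope of 0.42 (limma adjusted p = 0.355) over the other 34.

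Rps28, Rpl13a, Rpl35a and Rps15 rose with the control difference. Rps28, a small-subunit protein, read 12.28 log2 on replicate 5 at 70.6 mg/kg, where the other 5 lay between 11.84 and 12.03, and 12.12 on replicate 4 at 0.07 mg/kg, where they lay between 11.79 and 11.93. Both arrays exceeded all others of their group. Over the other 34 arrays Rps28 had a slope of 0.77 (95% interval 0.34 to 1.21, limma adjusted p = 0.0248). Rpl13a had 0.88 (adjusted p = 0.0263), Rpl35a 0.75 (adjusted p = 0.0319) and Rps15 0.77 (adjusted p = 0.0402), all from limma. Of these, Rpl35a and Rps15 have the pyrimidine run shown above and Rps28 and Rpl13a do not. These calls were fragile: with the beta-actin difference 0 members were called higher, without replicate 3 at 706 mg/kg 0, without vehicle replicate 1, replicate 6 at 0.71 mg/kg or replicate 1 at 706 mg/kg 1 each, and without replicate 2 at 0.07 mg/kg, replicate 5 at 0.71 mg/kg or replicate 1 at 70.6 mg/kg 2 each. With all 36 arrays 14 members were called higher, beside 7.66% of all probe sets, with the smallest p for Rps28, Rpl11 and Rpl23a, and Rps27l and Rpl18 were again called lower, beside 7.8%.

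**Figure D4:**
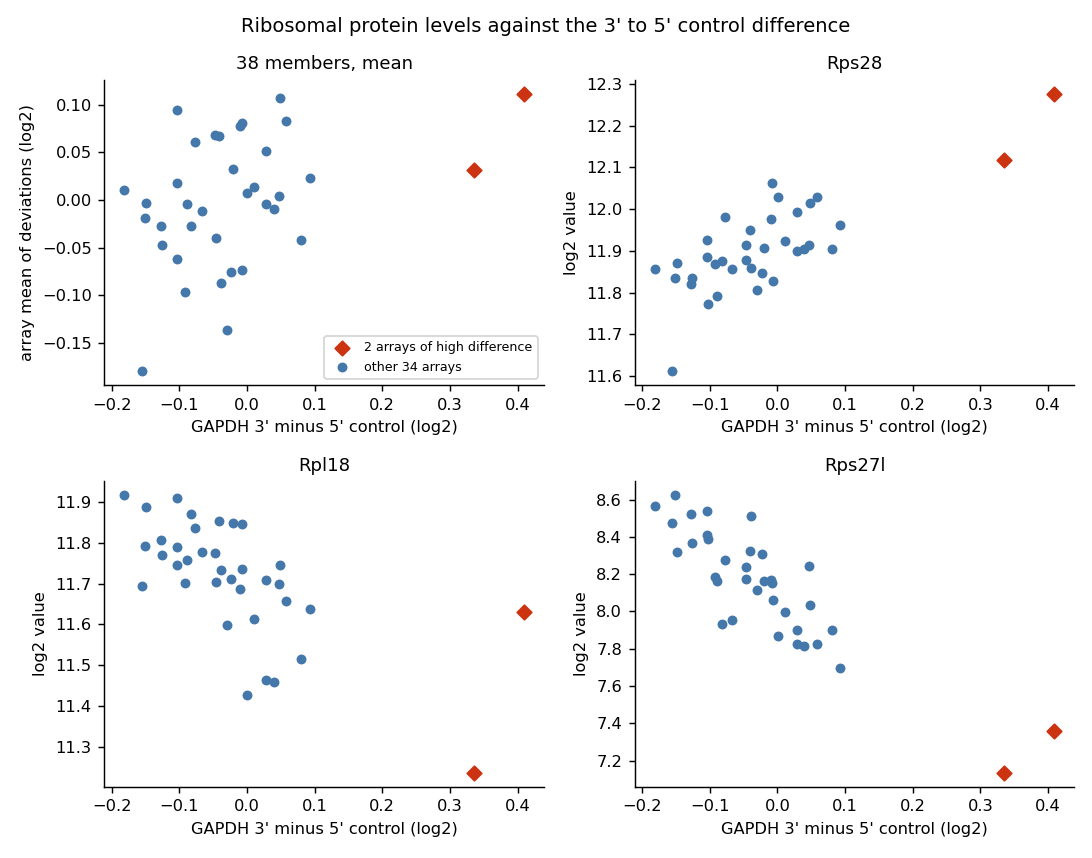
Log2 values against the GAPDH 3′ minus 5′ control difference (log2) on 36 arrays for the array mean of the 38 upper members, Rps28, Rpl18 and Rps27l, with diamonds for the 2 arrays of high difference and circles for the other 34. Rps27l falls to 7.13 and 7.36 on the diamonds, while Rps28 reads 12.12 and 12.28 there.

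The same slope was called for genes of other lists, to be read beside the 2.88% of all probe sets called in each direction. Of 73 mitochondrial ribosomal proteins 12 were called higher and 1 lower (Mrpl43 1.25, limma adjusted p = 0.00205), and of 49 initiation factors 4 higher and 0 lower (Eif4g1 2.46, limma adjusted p = 1.62e-07, and Eif4g3 1.91, adjusted p = 0.000126). Of 34 proteasome subunits 5 were called higher and 0 lower (Psmb7 1.95 and Psmd3 1.38), and of 90 respiratory chain genes 19 higher and 6 lower (Atp5mpl 0.94 and Cox5a −2.08). Mtor rose with the difference (1.23, limma adjusted p = 0.00479) as 1 of 13 genes of TOR signalling, and Hnrnpa1 fell (−0.90, limma adjusted p = 0.0221) as 1 of 8 TOP genes. Among 7 elongation factors and 30 ribosome biogenesis genes none was called, where Eef2 had 0.87 (limma adjusted p = 0.0566) and Ubtf 1.03 (limma adjusted p = 0.0552). Of the marker lists, 1 of 4 erythroid genes was called, Alas2 with 2.27 (limma adjusted p = 0.0197), and none of the hepatocyte, Kupffer cell, lymphocyte, pancreas, endothelial and stellate markers.

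The study compared each dose with vehicle. No member differed from vehicle at any dose in limma: 0 of 50 were called at each of the 5 doses, along dose rank or for any difference among the 6 groups, beside 0% of all probe sets in each. At an unadjusted p under 0.05 the fit gave 0 of 50 members at 706 mg/kg, beside 3.48% of all probe sets, 0 at 70.6 mg/kg beside 5.24%, 0 at 7.06 mg/kg beside 3.48%, 1 at 0.71 mg/kg beside 3.98% and 1 at 0.07 mg/kg beside 3.07%. Along dose rank it gave 0, beside 4.16%, and among the 6 groups 1, beside 2.54%. The 5 comparisons share the vehicle arrays.

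The members' differences from vehicle had medians of 0.01 log2 at 0.07 mg/kg, 0.04 at 0.71, 0.05 at 7.06, 0.02 at 70.6 and −0.0036 at 706 mg/kg, while the medians of all probe sets lay between −0.0041 and −0.0021. Single arrays moved the medians of the members: without vehicle replicate 3 they were −0.01 at 0.07 mg/kg, 0.01 at 0.71, 0.02 at 7.06, −0.01 at 70.6 and −0.03 at 706 mg/kg. Without the 2 arrays of high control difference they were −0.0031 at 0.07 and −0.0088 at 70.6 mg/kg, and without replicate 3 at 706 mg/kg the median there was 0.02. Above 0 lay 32 of 50 members at 0.07 mg/kg, beside 48.1% of all probe sets, and 40 at 0.71 mg/kg, beside 47.9%. At 7.06 mg/kg 40 members lay above 0, beside 48.1%, at 70.6 mg/kg 28, beside 48.9%, at 706 mg/kg 22, beside 48.4%, and along dose rank 26, beside 49.2%. The members move together from array to array, so such counts are not 50 separate observations. The median SE of a member's difference was 0.0596 log2, against 0.0845 for all probe sets.

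The array means show the same overlap. Those of the upper members had their lowest, median and highest values at −0.14, −0.03 and 0.09 log2 with vehicle, −0.08, −0.01 and 0.03 at 0.07 mg/kg and −0.03, 0.01 and 0.11 at 0.71 mg/kg. At 7.06 mg/kg they were −0.04, 0.05 and 0.08, at 70.6 mg/kg −0.10, −0.01 and 0.11, and at 706 mg/kg −0.18, −0.01 and 0.08. Every dose group overlaps vehicle, and differences between the 6 groups held 10.6% of the variance of the array mean. Means of 6 arrays differ without any effect of dose too, so this share is not a measure of such an effect. The SD within a group was 0.0694 log2.

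**Figure D5:**
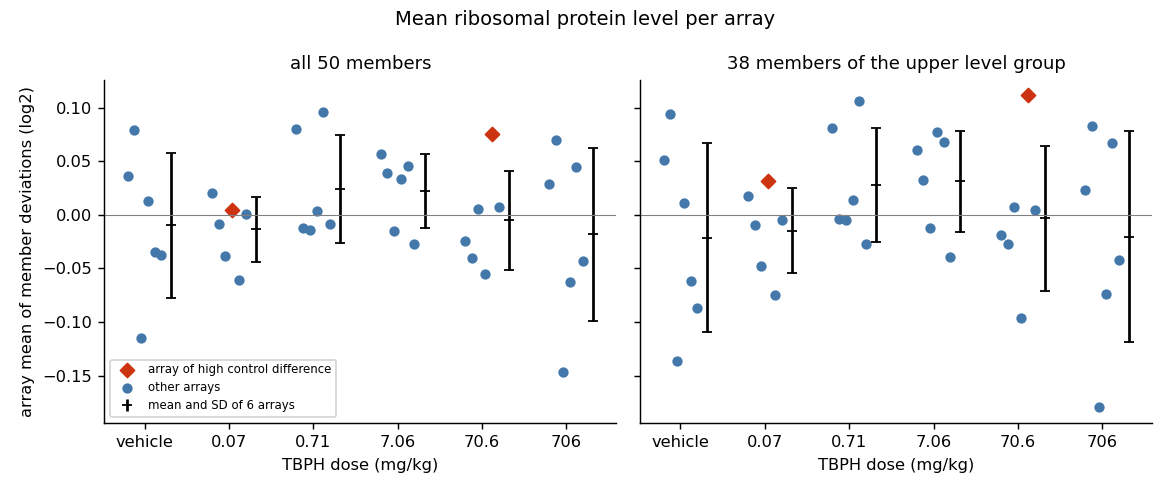
Mean deviation of the members from their own means (log2) on each array by TBPH dose (mg/kg), for all 50 members and for the 38 upper members, with diamonds for the 2 arrays of high control difference and bars for the mean and SD of 6 arrays. All groups overlap, and the lowest array, at −0.18 for the upper members, is replicate 3 at 706 mg/kg.

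Members named for the smallest unadjusted p at each dose also overlapped vehicle. Rps16, a small-subunit protein, had lowest, median and highest values of 12.15, 12.33 and 12.44 log2 at 0.71 mg/kg and 12.13, 12.29 and 12.36 at 706 mg/kg, against 12.09, 12.16 and 12.28 with vehicle. The differences were 0.15 (95% interval 0.03 to 0.27) at 0.71 mg/kg and 0.10 (−0.02 to 0.22) at 706 mg/kg, with limma adjusted p-values of 0.9998 and 0.9995. Its slope over dose rank was 0.0188 log2 per step.

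Rpl39l1, at signals where most of the value may be background, had 3.32, 3.60 and 3.99 log2 at 0.07 mg/kg and 3.37, 3.46 and 4.02 at 0.71 mg/kg, against 3.23, 3.40 and 3.46 with vehicle. The differences of 0.24 and 0.20 log2 had limma adjusted p-values of 1 within rounding, and the ranges overlap. Without replicate 5 at 0.71 mg/kg the difference there was 0.11. Over the 6 groups Rpl39l1 was the member with an unadjusted p under 0.05 (0.00837, limma adjusted p = 1 within rounding). Rpl18 differed by −0.16 log2 at 0.07 mg/kg, where its lowest array is replicate 4, of high control difference, and by −0.09 without that array.

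At 706 mg/kg Rps4x-ps1 had 2.25, 2.49 and 2.78 log2, against 2.34, 2.38 and 2.41 with vehicle, a difference of 0.13 (95% interval −0.02 to 0.28), or 0.08 without replicate 5 at 706 mg/kg. At 70.6 mg/kg Rps27l had a mean of 8.04 ± 0.43 (SD, n = 6), against 8.34 ± 0.27 with vehicle, a difference of −0.30 (95% interval −0.66 to 0.06), or −0.16 without replicate 5 at 70.6 mg/kg. At the other doses it differed by −0.17 to −0.30, and the mean GAPDH difference was −0.07 with vehicle and lay between −0.04 and 0.02 in the dose groups. A fit with the control difference as a covariate, run as an alternative, also called no member at any dose. Whether the control difference accounts for these values of Rps27l was not tested.

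Rpl23a, at the exit of the peptide tunnel, differed from vehicle by 0.11 log2 at 70.6 mg/kg, where replicate 5, of high control difference, gave its highest value, 12.57. Without that array the difference was 0.05. Rps24 and Rpl41 differed by 0.12 and 0.11 at 7.06 mg/kg, with values of 12.21, 12.34 and 12.47 for Rps24, against 12.07, 12.20 and 12.37 with vehicle. Without vehicle replicate 6 the difference of Rpl41 was 0.06. Rpl30 had the second smallest p along dose rank with a slope of −0.0249 log2 per step, from a probe set at 3.53 log2. None of these passed the adjusted threshold, and all of their groups overlapped.

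At the highest dose 5 of the well-known members, Rplp0, Rps6, Rpl5, Rpl11 and Rpsa, were close to vehicle. Others of the panel lay further off, among them Rpl41 with means of 13.02 log2 at 706 mg/kg and 12.92 with vehicle. Rps27l had means of 8.05 and 8.34, and Rps4y2 of 7.49 and 7.69. Rplp0 averaged 12.48 ± 0.17 log2 at 706 mg/kg and 12.51 ± 0.09 with vehicle (SD, n = 6 each), a difference of −0.02 with a 95% interval of −0.16 to 0.11. Rps6 differed by −0.02 (−0.12 to 0.09), Rpl5 by −0.05 (−0.16 to 0.07), Rpl11 by 0.04 (−0.08 to 0.16) and Rpsa by 0.02 (−0.11 to 0.16). These intervals leave differences of up to about 0.16 log2 in either direction possible for these 5 members at 706 mg/kg.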

How the data were processed

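The authors deposited log2 expression values, made with RMA and the affy package per the submitters' processing notes (versions not given in the sources used here), for 31099 probe sets on 36 arrays. RMA quantile-normalizes all arrays, so a change shared by most probe sets cannot appear. The 57 control probe sets were left out of tests, which ran on 31042. Probe sets were named from the platform's annotation: 20826 carry 1 symbol, 436 several and 9780 none. The members, the gene lists and the tests were chosen with earlier results of these data known. The authors' design names R/maanova, and limma 3.58.1 (R 4.3.3) was used in its place, with eBayes, 1 mean per group and Benjamini-Hochberg adjustment at 0.05 over all probe sets. Correlations between probe sets used residuals from group means, and those of array means and control differences the values themselves (Python 3.11.15, numpy 2.4.6, scipy 1.17.1), and figures matplotlib 3.10.9. The limma fits were tested on simulated data.

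Members named are a panel of well-known genes, those with the smallest p in each comparison, the extremes in signal, SD and correlation, and the 3 other genes most like the member mean. Replicate numbers did not pair samples: arrays of the same number correlated at a mean of −0.02 over 90 pairs (lowest −0.41), against 0.0034 for other pairs of arrays. The number of arrays limits the precision. Alternatives covered the arrays used, a replicate block, the control difference as a covariate, moderation, weights, filters, normalization, probe set choice, thresholds and leaving out each array.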

Additional observations from a re-analysis of the deposited data

Results flagged for a closer look

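Dixon's test at 95% was run on each group of 6 arrays for a selection of the members and for array measures. It singled out 6 of 90 groups, where chance gives about 4.5. Members outside the selection, Rpl23a among them, were not tested, so their absence below does not mean that they passed. The GAPDH control difference was 0.41 log2 on replicate 5 at 70.6 mg/kg, against 0.05 on the nearest array of its group, and 0.33 on replicate 4 at 0.07 mg/kg, against 0.04. Rpl11 read 12.77 on the first of these arrays, and the nearest array of its group read 12.52. Rps27l read 7.96 on replicate 3 at 7.06 mg/kg, the lowest of its group, with the nearest at 8.17. On the same array the 5S rRNA control probe set read 6.96, with the nearest at 8.45. Rpl39l1 read 3.17 on replicate 1 at 70.6 mg/kg, with the nearest at 3.32. No explanation was tested for these values.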

How the results depend on the processing

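The counts of 0 members at each dose, along dose rank and among the 6 groups held under every alternative but one: at an unadjusted p under 0.05 there was 1 at 0.71 mg/kg, 1 at 0.07 mg/kg and 1 among the 6 groups. The count of members called higher with the control difference, 4, changed most. It was 14 with all 36 arrays, beside 7.66% of all probe sets, 0 with the beta-actin difference and 0 with the mean of both differences. Without probe sets below the median signal, which drops 8 members, it was 8, and no share of all probe sets is given for this setting. It was 13 over the 50 members and the 36 probe sets of several symbols together, beside 2.88% of all probe sets. This addition was chosen after seeing the data. Leaving out 1 array at a time the count of 4 ranged from 0 to 5. The count called lower was 2 without each array in turn. Among all probe sets called for a slope on the control difference there were 4797 with all 36 arrays, against 1786. Mean pairwise r, 0.378, was 0.319 with the probe set of highest SD per gene. With choices made after seeing the data, it was 0.635 in members of at least 11 log2 and 0.449 with the probe sets of several symbols. Leaving out 1 array it ranged from 0.349 to 0.394. Replicate numbers are shared between groups, and no pairing by them was seen. With a replicate block 0 members were called at any dose, 4 higher and 2 lower with the control difference, and mean pairwise r was 0.337. The cause of these changes was not tested, and signal over background limits the 12 members of low signal. No alternative reversed a called value. Leaving out 1 array, the median difference of the members ranged from −0.01 to 0.03 log2 at 0.07 mg/kg, 0.01 to 0.06 at 0.71, 0.02 to 0.07 at 7.06, −0.01 to 0.04 at 70.6 and −0.03 to 0.02 at 706 mg/kg.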

Other observations

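Some genes outside translation with high or low correlation to the member mean (36 arrays, group means removed) are named here after their values were seen, and others of unrelated function, such as Acbd6, Dtd1 and Tmem147, were as high. Asns, which makes asparagine, had 0.81 with an SD within groups of 0.68 log2, and Phgdh, the first enzyme of serine synthesis, had 0.76 with an SD of 0.54. Pck2, the mitochondrial PEP carboxykinase, had 0.75. All 3 are known to respond to amino acid shortage through Atf4, but they were picked from the top of the ranking. Targets of Atf4 were not examined as a set, and Sesn2 and Ddit4 of the TOR list had 0.03 and 0.36. Gas5, a non-coding RNA gene whose transcript has a TOP tract, had 0.81, Pabpc4, a poly(A)-binding protein, 0.80 and Nhp2, a small nucleolar RNP protein, 0.76. At the other end Tpst1, a tyrosylprotein sulfotransferase, and Rida, a deaminase of reactive imines, had −0.81, Baat, which conjugates bile acids, −0.74, and Cyp2c11, a cytochrome P450 of male rat liver, −0.72. Cps1, which feeds the urea cycle, had −0.67, and 3 probe sets of Crem, a cAMP-responsive regulator, had −0.68 each. These correlations are descriptions, and of 30992 other probe sets 791 lay above 0.5 and 270 below −0.5.

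The array's 5S rRNA control probe set is named for the RNA that Rpl5 and Rpl11 carry into the ribosome. How well its signal reads the amount of that RNA was not tested. This signal ranged from 5.81 to 10.42 log2 over the 36 arrays. Over the 34 arrays it correlated with the GAPDH difference at r = 0.78 (rho 0.84) and with the beta-actin difference at r = 0.81 (rho 0.81), each with a permutation p of 1e-05, the smallest that 100000 permutations can give, and an adjusted p of 1e-05 over both relations. The permutations ran over all 34 arrays without regard to dose group, and this test was added to those planned. Without the 2 arrays farthest from the median, r was 0.76 and 0.78. The correlation of the 5S signal with the array mean of the upper members was 0.37.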
